A study of Mus musculus with 44 samples.

Results

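The cytosolic ribosome is built from a large and a small subunit, and each subunit holds many proteins (named Rpl and Rps after the subunit) on a scaffold of ribosomal RNA. The messenger RNAs of these proteins are among the most abundant of most cells, and many of them begin with a run of pyrimidine bases at the start of transcription (the 5′ terminal oligopyrimidine or TOP motif), through which the kinase mTORC1 controls their translation. In blood-forming tissue the loss of 1 copy of several of these genes causes Diamond-Blackfan anaemia, a failure of red cell production.

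The genes described here were those whose single annotated symbol is Rpl or Rps with a number, together with Rplp0, Rplp1, Rplp2 and Rpsa, leaving out the Rps6k kinases and pseudogenes. The rule used symbols only and no measured value, and it found 46 of the 18193 genes with 1 symbol on the array, 24 of the large and 22 of the small subunit. Where a gene had several probe sets, the one with the highest mean over all arrays stood for it. In all, 100 probe sets carried a member symbol alone, and 23 members had more than 1. A further 110 probe sets carried a ribosomal protein symbol beside other symbols, and 28 ribosomal protein genes, Rpl3, Rpl5 and Rplp1 among them, were seen only there and are no members.

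The study profiled 3 tissues (liver, spleen and humerus marrow) from B6C3F1 mice. The animals received vehicle or 2-butoxyethanol (2BE), an industrial solvent of the glycol ether class whose acid metabolite lyses rodent red cells. RNA was hybridised to 44 Affymetrix mouse expression arrays in 10 groups. Liver had 3 arrays with vehicle and 4 with 2BE at 4 h, and 4 and 5 at 7 d. Spleen had 4 per arm at 4 h and 5 per arm at 7 d, and marrow 5 per arm at 7 d. The sample names call the arms vehicle and 2BE, while their treatment field reads "control" and "reduced oxygen". No dose, route, sex or age is given in the sources used here, and nothing says that replicates were separate animals, so p-values measure the spread between these samples, which may be partly technical. Liver came from the left lateral lobe, marrow from the right humerus and spleen as a part cross-section, so every value is a mean over the cells of a tissue. In such bulk RNA, fewer cells of a type and less RNA per cell cannot be told apart. Levels are log2(intensity + 1). The 5 tissue and time sets had separate array medians (the lowest 41.2 and the highest 112 in linear intensity) and may have been normalised separately, so levels were compared only within a set.

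The labelled tissues carried their markers. The summed intensity of 8 hepatocyte genes was 189000 to 226000 in liver arrays and at most 3160 elsewhere. The summed neutrophil and precursor markers were 161000 to 176000 in marrow and at most 114000 elsewhere. B cell markers were highest in vehicle spleen at 7 d (31000 to 36900). The summed erythroid markers were at least 51400 in marrow. In spleen they reached 60700 with vehicle at 4 h and 82300 to 100000 with 2BE at 7 d, so they do not tell marrow from spleen. Cell type markers of the haematopoietic tissues differed between arms at 7 d. In spleen all 8 erythroid and all 11 cell cycle genes measured rose (median log2 differences 2.94 and 2.04) and all 7 B cell genes fell (median −1.63), as did 6 of 7 T cell genes (−1.30), all 4 NK cell (−1.74), all 5 plasma cell (−1.14), 4 of 5 megakaryocyte (−1.34) and 4 of 5 endothelial genes (−0.97). In marrow 7 of 8 erythroid genes rose (median 0.40) and all 7 B cell genes fell (median −1.23).

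The start of transcription is shown first for a few members, because the TOP motif marks the family. RefSeq promoter windows of GRCm38.p6 were matched by symbol for 40 of the 46 members. A run of at least 8 C or T between 10 bases before and 20 bases into the transcript was found on the gene's strand in 16 of the 40, against 3517 of 27025 genes with a window. In the lines below the 30 bases are written 5′ to 3′ on the strand of the gene, and capitals mark the run. Rps18, Rpl13a, Rps6 and Rplp2 have one and fell in the 7 d spleen. Rplp0, which did not pass the test, and Rps27l, the only member that rose there, have none of that length at the start site shown. These are examples, and the reverse also occurred. Rps19, Rpl37, Rps25 and Rpl11 fell without such a run, and Rpl14 and Rps26 have one and did not pass.
Rps18, chr17:33955646-33955675, minus strand: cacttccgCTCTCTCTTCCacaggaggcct
Rpl13a, chr7:45128726-45128755, minus strand: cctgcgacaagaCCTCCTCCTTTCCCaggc
Rps6, chr4:86857348-86857377, minus strand: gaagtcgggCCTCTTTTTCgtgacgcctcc
Rplp2, chr7:141447641-141447670, plus strand: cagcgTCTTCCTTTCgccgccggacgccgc
Rplp0, chr5:115559457-115559486, plus strand: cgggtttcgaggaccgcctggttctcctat
Rps27l, chr9:66946076-66946105, plus strand: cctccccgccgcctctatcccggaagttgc

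The run was present in 9 of 20 members that fell in the 7 d spleen (45.0%) and in 7 of the 20 others (35.0%). The ETS-type motif CCGGAAG, searched on both strands of the 300 bases around the start, was found in 20 of 40 members and in 9.93% of all genes. Members that fell and members that did not carried it equally often (10 of 20 each). The motif stands in capitals in the windows of Rpl37 and Rps25, the members with the largest and the third-largest fall in that spleen.
Rpl37, chr15:5116579-5116607, plus strand: accaagacccgCCGGAAGtagtttcctgg
Rps25, chr9:44407630-44407658, plus strand: cacccattgccCCGGAAGtactctctcga

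Other common promoter motifs gave mixed shares. TATAAA was found in 12.5% of the members and 15.7% of all genes. CCAAT was found in 30.0% and 41.1%, and GGGCGG in 55.0% and 38.2%, each on both strands. A match describes these letters only.

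Most members were among the brightest transcripts of every tissue. A level of 11, chosen after the values were seen, separated 34 bright members from 12 dim ones. In each of the 5 sets the vehicle level of the 34 lay at or above the 96.4th percentile of all genes, with a median percentile of 98.9 in liver, 99.8 in spleen and 99.7 in marrow. In spleen and marrow 33 members lay in the top 1% of genes, against 14 in liver at 4 h and 16 in liver at 7 d. Rps29, a small zinc-binding protein of the small subunit, was the brightest member in each set and reached 14.68 in vehicle spleen at 7 d, where the median gene was at 7.55. The 12 dim members were Rpl12, Rpl14, Rpl27a, Rpl37, Rpl39, Rpl39l, Rpl3l, Rps16, Rps25, Rps27, Rps4l and Rps6. Rpl3l (a paralogue of Rpl3 used in striated muscle) and Rpl39l (a paralogue of Rpl39 best known from testis) were near the bottom of the scale, at 4.44 and 3.97 in vehicle liver at 4 h. Apart from these and Rps4l, the dim members encode proteins of ordinary ribosomes, and their low level is that of the probe set the annotation ties to that symbol alone. Of the 46 probe sets used, 12 have names ending in _x_at and 2 in _s_at, which mark probes that can also bind other transcripts, so a value of a member may include its pseudogenes.

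The members also varied little between arrays of 1 group. The median SD within groups was 0.067 for the 46 members and 0.13 for all genes in the 7 d spleen, and 0.039 and 0.11 in the 7 d marrow. In the 7 d spleen it was 0.058 for the bright members and 0.10 for the 612 genes of level 11 or more, most of which are dimmer than the median bright member.

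In liver and in the 4 h spleen, most ribosomal protein mRNAs stayed close to the vehicle level. Calls are from limma, with p-values adjusted over all genes (Benjamini-Hochberg) and a threshold of 0.05. In liver at 4 h 1 member passed, against 4.51% of all genes, and 37 of the 46 differences were negative, with a median of −0.064 (all genes −0.017). That median ran from −0.096 to −0.012 when 1 array was left out. The mean level over the members overlapped between arms there, at 11.13 to 11.27 in vehicle and 11.12 to 11.21 in 2BE. In spleen at 4 h no member passed (1 had an unadjusted p under 0.05), against 5.16% of all genes, and 40 differences were positive, with a median of 0.030 (all genes −0.032). In liver at 7 d no member passed, none had an unadjusted p under 0.05, and the median was −0.020 (all genes −0.0013, of which 0.748% were called). The bright members spanned −0.17 to 0.032 in liver at 4 h and −0.061 to 0.17 in spleen at 4 h. A p that misses the threshold does not show equality, but over all 46 members the median SE was 0.066 in liver at 4 h and 0.059 in spleen at 4 h.

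**Figure D1:**
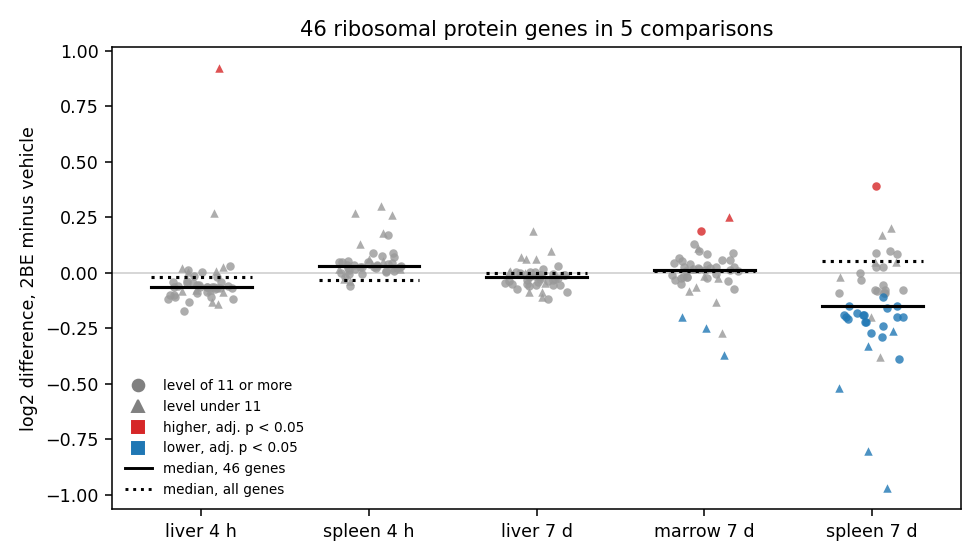
Log2 difference of 2BE minus vehicle (y axis) for each of the 46 ribosomal protein genes in the 5 comparisons (x axis); circles have a mean level of 11 or more, triangles less, colours mark calls at an adjusted p under 0.05, and lines give the medians of the members (solid) and of all genes (dotted). The member median lies between −0.064 and 0.030 in liver, 4 h spleen and marrow, where Rps4l in liver at 4 h (0.92) and Rpl12 in marrow (−0.37) are the farthest called points, and is −0.15 in the 7 d spleen.

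The exception in liver at 4 h was Rps4l, a paralogue of the X-linked Rps4x. The vehicle arrays read 7.61, 8.16 and 7.63, and the 2BE arrays read 8.78, 8.21, 8.61 and 9.28. The arms did not overlap, although the second array of each arm differed by only a small step. The difference was 0.92 (SE 0.20, limma adjusted p = 0.0158), a 1.89-fold rise. With the replicate number as a block, although no label says that numbers mark pairs, it was 0.74 with an adjusted p of 0.301. The call was also lost without vehicle replicate 1 (adjusted p = 0.0763) or vehicle replicate 3 (0.0620). Rps4x itself, at a level of 12.86 in vehicle, differed by −0.044 (adjusted p = 0.784). At 7 d the liver value of Rps4l was 0.10 (SE 0.18, adjusted p = 0.907), and the change between times did not pass the test of the difference (−0.82, SE 0.27, adjusted p = 0.288).

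In bone marrow at 7 d, few ribosomal protein genes changed. Rps27l and Rpl14 rose and Rpl12, Rpl39l and Rps25 fell, so 5 of 46 passed (10.9%), against 20.1% of all genes. The median difference was 0.012 (all genes 0.0067), and of the 34 bright members only Rps27l passed. Bright members moved by a median of 0.027 in either direction, while the 612 bright genes, most of them dimmer than the median bright member, moved by 0.11.

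Rps27l, a paralogue of Rps27 whose gene is a known target of p53, read 11.82, 11.79, 11.79, 11.78 and 11.71 in the vehicle marrow arrays. In the 2BE arrays it read 12.01, 11.86, 11.88, 12.01 and 12.06. Each 2BE array was above each vehicle array. The rise was 0.19 (SE 0.053, adjusted p = 0.0248), or 1.14-fold. It missed the threshold without vehicle replicate 5 (adjusted p = 0.0653), 2BE replicate 4 (0.0607) or 2BE replicate 5 (0.0551).

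Rpl12, which helps to form the base of the stalk of the large subunit, had the largest marrow change of the members. It read 7.68, 7.69, 7.79, 7.82 and 7.70 in vehicle and 7.61, 7.24, 7.02, 7.48 and 7.49 in 2BE. All 2BE arrays were below the vehicle arrays. The difference was −0.37 (SE 0.093, adjusted p = 0.0128), 1.29-fold lower. The falls of Rpl39l (−0.25) and Rps25 (−0.20) and the rise of Rpl14 (0.25) had overlapping arms. The marrow count rested on single arrays. It was 3 without vehicle replicate 1 or 2, 2 without vehicle replicate 5 or 2BE replicate 3, and 1 without 2BE replicate 4. Rps19, which is mutated in Diamond-Blackfan anaemia, differed by 0.011 in marrow (SE 0.048, adjusted p = 0.905). In the same arrays the summed intensity of the 8 erythroid markers was 51400 to 64000 in vehicle and 71400 to 78000 in 2BE, and that of the 7 B cell markers was 6400 to 7970 in vehicle and 1800 to 3100 in 2BE. Their part in the marrow values was not tested.

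In the 7 d spleen a broad set of ribosomal protein mRNAs was lower with 2BE. Of the 46 members, 23 fell and 1, Rps27l, rose. Among all genes 32.0% fell and 32.4% rose. Of the 34 bright members 18 fell and 1 rose, and of the 612 genes of level 11 or more, these members included, 279 fell (45.6%, median difference −0.091) and 198 rose (32.4%). The members' share of falls was near that of the bright genes, and the difference in share was not tested. The changes were small. The median was −0.15 for all members (all genes 0.051) and −0.13 for the 34 bright ones, which is 1.10-fold lower, and no member changed 2-fold, while 1896 genes did. All 2BE arrays lay below all vehicle arrays for 23 members (26.7% of all genes) and above them for 1 (20.0% of all genes). Bright members moved by a median of 0.15 in either direction and the 612 bright genes by 0.38. Most of the 612 are dimmer than the median bright member, and the part of the level in this was not tested.

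**Figure D2:**
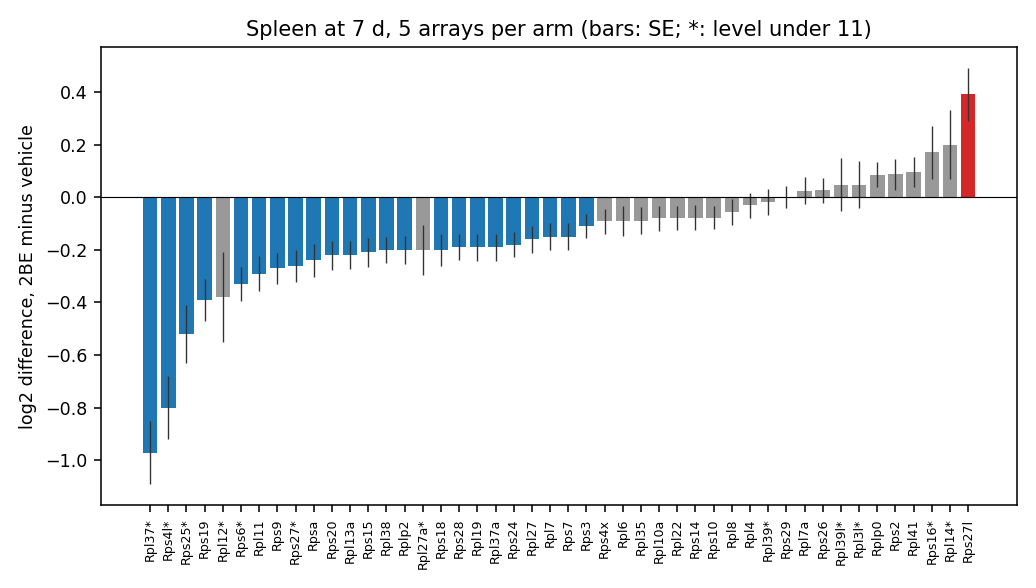
Log2 difference of 2BE minus vehicle in the 7 d spleen (y axis) for the 46 members ordered by size (x axis), with SE bars; blue bars fell, red rose and grey did not pass an adjusted p of 0.05, and an asterisk marks a mean level under 11. The bars run from −0.97 for Rpl37 to 0.39 for Rps27l, and the 3 longest belong to dim probe sets.

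Among the small-subunit proteins, Rps19 had the largest fall of the bright members. It is the gene most often mutated in Diamond-Blackfan anaemia. It read 14.01, 13.80, 13.78, 13.83 and 13.79 in vehicle and 13.51, 13.25, 13.34, 13.43 and 13.71 in 2BE. The arms did not overlap, vehicle replicate 1 was high and 2BE replicate 5 came closest to vehicle. The difference was −0.39 (SE 0.081, limma adjusted p = 0.000363), 1.31-fold lower.

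Rps6, the substrate of the S6 kinases, was read by a dim probe set. Its vehicle values were 9.63, 9.74, 9.51, 9.60 and 9.60, and its 2BE values were 9.35, 9.06, 9.26, 9.32 and 9.44. All 2BE arrays were lower. The difference was −0.33 (SE 0.066, adjusted p = 0.000258). With the mean over its probe sets the difference was −0.07 (adjusted p = 0.268). That mean takes in a second probe set at 4.18 in vehicle, under the lower quartile of all genes (5.74). The call thus rests on the brighter probe set alone.

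Rps25, a protein of the small subunit needed by some internal ribosome entry sites, read 10.08, 9.83, 9.81, 9.87 and 9.90 in vehicle and 9.29, 8.96, 9.44, 9.42 and 9.78 in 2BE. The arms did not overlap, though 2BE replicate 5 lay just under the lowest vehicle array. The difference was −0.52 (SE 0.11, adjusted p = 0.000540), 1.43-fold lower. Rps4l read 7.47, 7.26, 7.59, 7.28 and 7.18 in vehicle and 6.23, 6.66, 6.35, 6.79 and 6.76 in 2BE. It was lower in each 2BE array, by 0.80 on average (log2 difference −0.80, SE 0.12, adjusted p = 1.8e-05). Its bright paralogue Rps4x differed by −0.09 (SE 0.048, adjusted p = 0.0972).

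The other small-subunit falls were smaller. Rps9 (−0.27), Rps27 (−0.26) and Rpsa, also known as the laminin receptor (−0.24, SE 0.063, adjusted p = 0.00283), led them, followed by Rps20, Rps15, Rps18, Rps28, Rps24, Rps7 and Rps3 (−0.22 to −0.11). Rpsa read 14.29, 14.34, 14.29, 14.33 and 14.29 in vehicle and 14.17, 13.89, 14.06, 13.99 and 14.24 in 2BE, again with 2BE replicate 5 nearest to vehicle. Rps29, the brightest member, differed by 0.00011 (SE 0.042, adjusted p = 0.998).

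Among the large-subunit proteins, Rpl37 had the largest change of the family. The vehicle arrays read 10.55, 10.48, 10.25, 10.10 and 10.03 and the 2BE arrays 9.24, 9.26, 9.09, 9.18 and 9.76. The arms did not overlap, and 2BE replicate 5 stood apart from the other 4. The difference was −0.97 (SE 0.12, adjusted p = 1.5e-06), 1.96-fold lower.

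Rpl11, which with Rpl5 and 5S ribosomal RNA can bind and inhibit the p53 ligase Mdm2, read 13.48, 13.49, 13.37, 13.43 and 13.40 in vehicle. It read 13.12, 13.07, 13.03, 13.15 and 13.33 in 2BE. The arms did not overlap and the difference was −0.29 (SE 0.067, adjusted p = 0.00102), 1.22-fold lower. Rpl13a, Rpl38, Rplp2, Rpl19, Rpl37a, Rpl27 and Rpl7 fell by less (−0.22 to −0.15). Rplp2, an acidic protein of the stalk that recruits elongation factors, read 14.45, 14.44, 14.47, 14.47 and 14.40 in vehicle and 14.26, 14.12, 14.31, 14.20 and 14.35 in 2BE (difference −0.20, SE 0.052, adjusted p = 0.00268). All its 2BE arrays were lower. Rpl12, which fell in marrow, read 8.88, 8.53, 8.54, 8.53 and 8.74 in vehicle and 8.06, 7.71, 8.18, 8.34 and 9.01 in 2BE. Here 2BE replicate 5 was the highest array of both arms, and the difference (−0.38, SE 0.17) had an adjusted p of 0.0514.

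Rps27l was the only member that rose. It read 11.48, 11.48, 11.33, 11.44 and 11.47 in vehicle and 11.99, 11.81, 11.61, 11.88 and 11.87 in 2BE. All 2BE arrays were higher. The difference was 0.39 (SE 0.10, adjusted p = 0.00299), a 1.31-fold rise, and the 3 bright probe sets of the gene gave 0.35 to 0.41. Its paralogue Rps27, read by a dim probe set, fell by 0.26 on the log2 scale (SE 0.061, adjusted p = 0.00133). The testis and muscle paralogues Rpl39l and Rpl3l differed by 0.047 and 0.048, with adjusted p of 0.704 and 0.65.

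Several members in common use as reference transcripts fell. Of 8 on a list of such genes, 5 fell, 0 rose and 3 did not pass, with a median of −0.17. That median was near the −0.15 of all 46 members, of which 23 fell. Among all genes 32.0% fell and 32.4% rose. All 8 are bright members, and of the 612 bright genes 45.6% fell and 32.4% rose, against 62.5% and 0 of the 8. The differences in share were not tested. Rpl13a read 14.37, 14.34, 14.37, 14.36 and 14.32 in vehicle and 14.11, 14.05, 14.13, 14.08 and 14.28 in 2BE, a difference of −0.22 (SE 0.054, adjusted p = 0.00152). Rps18 read 14.24, 14.12, 14.13, 14.16 and 14.14 in vehicle and 14.06, 13.84, 13.83, 13.92 and 14.12 in 2BE, where 2BE replicate 5 reached the lowest vehicle arrays. Its difference was −0.20 (SE 0.061, adjusted p = 0.00754), or 1.15-fold. Rplp0, the scaffold of the stalk, read 14.28, 14.30, 14.26, 14.29 and 14.26 in vehicle and 14.41, 14.35, 14.29, 14.34 and 14.41 in 2BE. Its arms overlapped, and the difference was 0.086 (SE 0.046, adjusted p = 0.112). It passed as a rise with a further quantile normalisation (0.11, adjusted p = 0.0253) and with a pseudocount of 16 (adjusted p = 0.0497). In the mean over probe sets the falls of Rpl13a (−0.11, adjusted p = 0.0598) and Rps18 (−0.061, adjusted p = 0.352) missed the threshold. Of the bright probe sets alone, all 3 of Rps18 fell (−0.25 to −0.14), as did 2 of 3 of Rpl13a (range −0.22 to −0.057). The Rps18 mean also takes in dim probe sets, with mean levels over all arrays of 4.37 to 6.83. With the dim probe set of Rps18 whose name marks no shared probes, the sign turned (0.22, adjusted p = 0.0369).

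**Figure D3:**
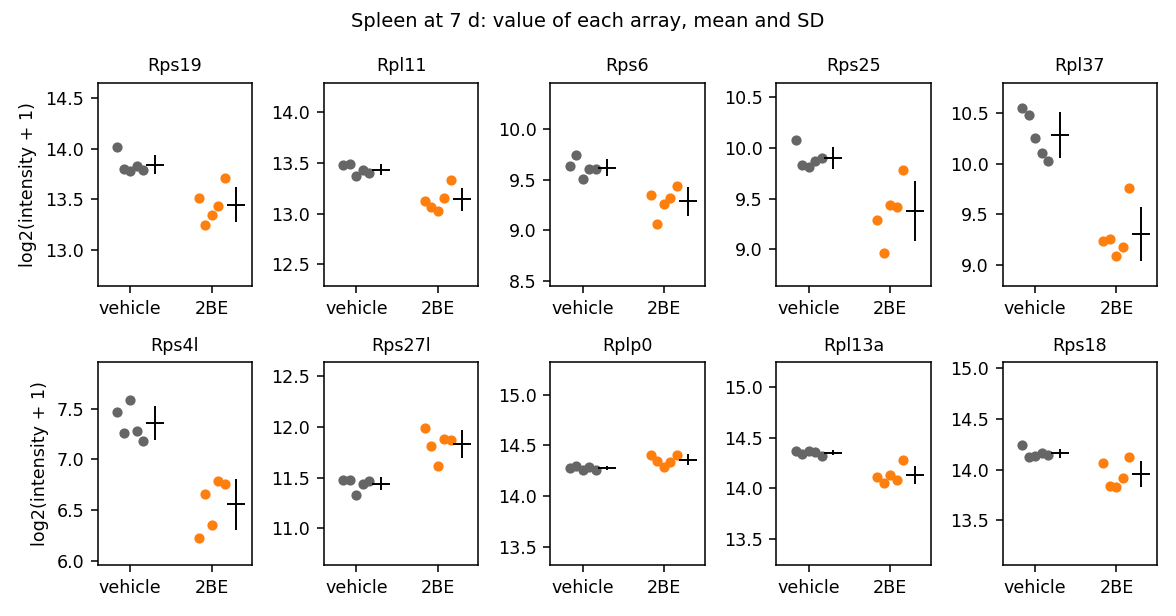
Level in log2(intensity + 1) (y axes, each spanning 2 log2 units) of 10 members in each of the 5 vehicle and 5 2BE arrays of the 7 d spleen, with mean and SD beside the points. The 2BE points lie below vehicle for Rps19, Rpl11, Rps6, Rps25, Rpl37 and Rps4l, above it for Rps27l, and 1 of the 5 2BE points, replicate 5, is nearest to vehicle in several panels.

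Members were also grouped by their role in disease or signalling. Of 11 members mutated in Diamond-Blackfan anaemia, 7 fell and 0 rose, with a median of −0.16. Of 6 members known to bind Mdm2, 4 fell and Rps27l rose, with a median of −0.13. Of all 46 members, these included, 23 fell and 1 rose, with a median of −0.15. Among all genes 32.0% fell and 32.4% rose. The medians of both lists were thus near that of the family, and differences in share were not tested. These lists overlap each other and the named genes.

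Replicate 5 of the 2BE arm stood apart from the others of its group. The mean level over the 46 members was 12.37 to 12.42 in the 5 vehicle arrays. It was 12.25, 12.17, 12.18 and 12.23 in 2BE replicates 1 to 4 and 12.37 in replicate 5. The same replicate had the highest summed B cell markers of its arm (16300, against 6160 to 12100 in the other 4 and 31000 to 36900 in vehicle). It also had the lowest summed erythroid markers (82300, against 97300 to 100000) and cell cycle markers (69500, against 76700 to 85100). In vehicle, replicate 1 had an erythroid sum of 9190, against 22900 to 25500 in the other 4. Without both arrays 25 members fell and 1 rose, and the median was −0.18. The part of the marker changes in the members' values was not tested. As a sign of RNA quality, the 3′ minus 5′ log2 signal of Actb was 0.24 to 0.27 in vehicle and 0.23 to 0.31 in 2BE, and that of Gapdh was 0.25 to 0.29 in vehicle and 0.21 to 0.44 in 2BE. Its part in the members' values was not tested.

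Probe sets that the rule did not use gave a similar picture. Of the 54 further probe sets of members 26 fell and 6 rose (median −0.12). Of the 110 with several symbols 61 fell and 5 rose (median −0.15). The bright ones among the latter fell in 55 of 81 cases and rose in 2. In each of the other 4 comparisons at most 2 of the 110 with several symbols rose and at most 2 fell. The share of all genes called there ran from 0.748% in the 7 d liver to 20.1% in marrow. Several genes were lower in each of their bright probe sets, among them Rpl27 (−0.61 to −0.16), Rps15 (−0.76 to −0.21) and Rps24 (−0.35 to −0.18). These probe sets share the arrays with those of the members, and many share transcripts.

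The 210 probe sets were also described by their vehicle level. The median was −0.20 for levels of 9 to 12 (8 of 16 fell and 3 rose), −0.33 for 12 to 13, −0.21 for 13 to 14 and −0.14 above 14. From a level of 12 up the median fall was thus smaller in each brighter class, and the class of 9 to 12 broke that order. The part of the level in the size of the differences was not tested. Across the 46 members of the 7 d spleen the level and the difference had a Pearson r of 0.091 and a Spearman rho of 0.14, and among the bright members r was −0.14; these values are across genes on shared arrays and are given as a description. Among 18 genes with at least 2 bright probe sets, the dimmest of them had the lower value in 13. Below a level of 9 the direction was mixed, with 7 rises and 6 falls among 32 probe sets at 6 to 9.

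**Figure D4:**
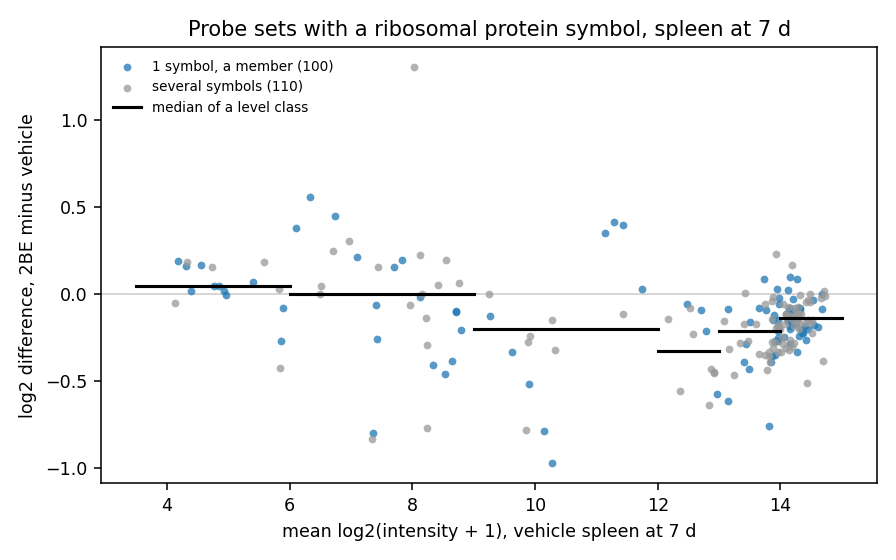
Log2 difference of 2BE minus vehicle in the 7 d spleen (y axis) against the mean vehicle level (x axis) of 210 probe sets with a ribosomal protein symbol, blue for the 100 of the members and grey for the 110 with several symbols; black lines give the median of each level class. Medians are −0.20 at a level of 9 to 12, −0.33 at 12 to 13 and −0.14 above 14.

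The response in the 7 d spleen was tested directly against that in the 4 h spleen, the 7 d marrow and the 7 d liver. Against the 4 h spleen 19 members were lower and 0 higher, with a median difference of −0.17, while among all genes 25.6% were lower and 25.6% higher. Rpl37 (−1.23, SE 0.18, adjusted p = 3.7e-05), Rps4l (−1.10, SE 0.18, adjusted p = 0.000128) and Rps6 (−0.46, SE 0.098, adjusted p = 0.00104) were among them. For Rps27l the difference between times did not pass the test (0.22, SE 0.16, adjusted p = 0.241), which does not show equal responses. Without vehicle replicate 3 of the 4 h spleen 12 members passed.

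Against the 7 d marrow the response in marrow was higher for 19 members and lower for 2, Rps27l (−0.21, SE 0.083, adjusted p = 0.0411) and Rpl39l (−0.30). Among all genes 25.0% were higher and 19.9% lower. Rps19 (0.40, SE 0.097, adjusted p = 0.00115) and Rpl11 (0.30, SE 0.084, adjusted p = 0.00432) were among the 19. Against the 7 d liver 15 members were lower in spleen and 1, Rps27l, was higher (0.41, SE 0.085, adjusted p = 0.000191), against 29.6% and 27.4% of all genes. The share of lower members (32.6%) was thus near the background. That count of 16 was 10 without vehicle replicate 3 of the liver and 25 without 2BE replicate 5 of the spleen. The comparisons share the spleen arrays. Neither the difference between liver times nor that between spleen and liver at 4 h had a member past the threshold (background 0.269% and 1.78%). Rps19 differed by −0.031 in the 7 d liver, 0.011 in the 7 d marrow and 0.034 in the 4 h spleen, with adjusted p of 0.929, 0.905 and 0.882.

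Other genes of the translation machinery did not all follow the ribosomal proteins in the 7 d spleen. Of 4 ribosomal proteins whose symbols the rule does not take, 3 fell: Rpl7l1 (−0.35), Fau, which encodes a fusion with Rps30 (−0.33), and Rpl22l1, a paralogue of Rpl22 (−0.31). Of 17 measured elongation factors and other TOP mRNAs, 9 fell (52.9%) and 3 rose (17.6%), with a median of −0.23. The shares over all genes were 32.0% and 32.4%. Eif3f (−0.49) and Eif3e (−0.42), subunits of an initiation factor complex whose mRNAs carry the TOP motif, fell, while the elongation factor subunit Eef1d (0.44) and the poly(A)-binding protein gene Pabpc1 (0.32) rose.

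Genes that make the ribosome seldom rose in the 7 d spleen. Of 54 assembly factors 21 fell (38.9%) and 3 rose (5.56%), with a median of −0.11. The share of falls was near the 32.0% of all genes, of which 32.4% rose. Tsr1 (−0.66) and Gtpbp4 (−0.62), which act in the maturation of the small and the large subunit, fell, and Bysl (0.69) rose. Of 14 genes of RNA polymerase I, which makes ribosomal RNA, 6 fell (42.9%) and 1 rose (7.14%). The differences in share were not tested.

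Initiation factors and regulators included members of both directions. Of 22 initiation factors 8 rose (36.4%), the cap-binding protein gene Eif4e (0.61) among them, and 5 fell (22.7%), shares near the 32.4% and 32.0% of all genes, with Eif4a2 (−0.79) and Eif4g3 (−0.78) lowest. Of 18 genes of mTORC1 and Myc control 7 rose (38.9%, near the share of all genes) and 2 fell (11.1%). Eif4ebp1, an inhibitor of Eif4e, was higher by 0.60 (SE 0.17, adjusted p = 0.00467) and Mtor fell by 0.31 on the log2 scale. Mitochondrial ribosomal proteins, of separate evolutionary origin, rose in 22 (28.9%) and fell in 18 (23.7%) of 76 cases, with a median of 0.020.

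**Figure D5:**
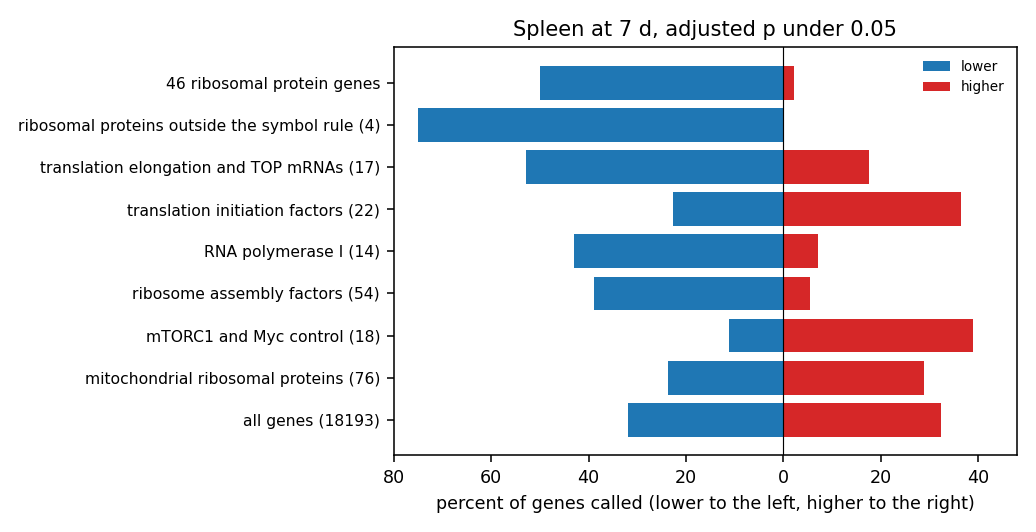
Percent of genes that fell (blue, to the left) or rose (red, to the right) in the 7 d spleen at an adjusted p under 0.05 (x axis) in the 46 members, 7 lists of genes of the translation machinery with the number measured, and all genes. The members show 23 falls and 1 rise (2.17%), against 32.0% and 32.4% of all genes.

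At 4 h a few assembly factors passed the test. In liver 6 of 54 rose and 1 fell, against 590 and 231 of all 18193 genes, with a median of 0.14, and Ltv1, which acts in export of the small subunit, rose by 0.38 (SE 0.080, adjusted p = 0.0119). In spleen 5 rose and 0 fell, against 602 and 336 of all genes, with a median of 0.12, and Rrs1, needed for 5S RNA incorporation, rose by 0.57 (SE 0.12, adjusted p = 0.00800). Ddit4, which encodes a stress-induced inhibitor of mTORC1, rose by 2.70 in liver (SE 0.60, adjusted p = 0.0161) and by 1.71 in spleen (SE 0.39, adjusted p = 0.0117). Myc rose in the 4 h spleen (0.64, SE 0.16, adjusted p = 0.0216). At 7 d in marrow and liver no assembly factor passed, against 20.1% and 0.748% of all genes.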

How the data were processed

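The authors deposited RMA intensities (RMA per the submitters' processing notes; no version, aligner or summary setting is given in the sources used here). They hold linear intensity for 45101 probe sets and 44 arrays, between 6.16 and 47797.8. Of the probe sets, 34945 had 1 symbol in the platform annotation, 932 several and 9160 none; 34741 identifiers matched RefSeq. Values were turned to log2(intensity + 1), with a pseudocount of 1. limma 3.58.1 (R 4.3.3) fitted group means for all arrays of a tissue (lmFit, eBayes), and 2-sided p-values were adjusted over 18193 genes at 0.05. Differences between responses were contrasts in 1 fit over the arrays of a tissue or of a time. The fit was tested on simulated data. The number of arrays limits the precision. No scan date or batch is given in the sources used here.

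The members and lists were chosen with earlier results of these data known. Named members were up to 6 in each direction of a comparison and a list of genes of known role; pathway genes were up to 4 of a list with the largest change. The deviations of same-numbered arrays from their group means had correlations of 0.132, 0.282 and 0.146 in liver at 4 h. In spleen at 4 h they ran from −0.381 to 0.543. In each set other than liver at 4 h at least 1 correlation was below 0.1. Correlations between differently numbered arrays were not computed. The values for same-numbered arrays therefore cannot show whether numbers mark pairs, and the replicate block is given only as an alternative. Alternatives were a further quantile normalisation, median centring, array weights, a trend in eBayes, a pseudocount of 16, a filter on the lowest 25% of genes, other rules for probe sets, the 2 groups alone, the replicate block and leaving out arrays.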

Additional observations from a re-analysis of the deposited data

Results flagged for a closer look

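Single arrays stood apart from the others of their group in 17 of 171 checks of a named member in a group of 4 or 5, by the gap to the nearest array over the group's range; chance gives about 1 in 20. In liver these were Rpl13a (13.24 in 2BE replicate 4 at 4 h), Rpl39l (3.77 in 2BE replicate 2 at 4 h and 4.18 in vehicle replicate 2 at 7 d), Rplp0 (12.96 in 2BE replicate 2 at 7 d), Rps25 (7.01 in 2BE replicate 5 at 7 d) and Rplp2 (12.80 in vehicle replicate 2 at 7 d). In marrow it was Rpl39l (5.75 in vehicle replicate 3). In spleen at 4 h vehicle replicate 3 was low for Rpl13a (14.02), Rplp2 (14.28) and Rps18 (13.80), vehicle replicate 2 was high for Rps6 (9.12) and 2BE replicate 4 was low for Rps25 (9.52). In spleen at 7 d the values were 9.76 for Rpl37 in 2BE replicate 5, 5.19 for Rpl3l in 2BE replicate 2, 4.98 for Rpl39l in vehicle replicate 2, 14.01 for Rps19 in vehicle replicate 1 and 11.33 for Rps27l in vehicle replicate 3.

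Responses differed between times or tissues by limma contrasts with p-values adjusted over all genes. Between 7 d and 4 h in spleen 19 members differed, all lower at 7 d, against 25.6% of all genes lower and 25.6% higher. The log2 differences were −0.34 for Rpl11, −1.23 for Rpl37, −0.43 for Rps19, −0.57 for Rps25, −1.10 for Rps4l and −0.46 for Rps6. Between marrow and spleen at 7 d 21 differed, 19 higher and 2 lower in marrow, against 25.0% and 19.9% of all genes. The values were 0.30 for Rpl11, 1.08 for Rpl37, −0.30 for Rpl39l, 0.40 for Rps19, −0.21 for Rps27l, 0.53 for Rps4l and 0.31 for Rps6. Between spleen and liver at 7 d 16 differed, 15 lower and 1 higher in spleen, against 29.6% and 27.4% of all genes. Here the values were −0.86 for Rpl37, −0.36 for Rps19, −0.71 for Rps25, 0.41 for Rps27l, −0.90 for Rps4l and −0.33 for Rps6.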

How the results depend on the processing

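Over 11 alternatives and 44 arrays left out in turn, 516 of 549 values of single members kept their direction and side of the threshold, as did 310 of 326 counts and medians within their bounds. Rps18 in the 7 d spleen reversed to 0.22 with probe sets without shared probes, where a dim one (mean level 6.83) stood for it. With the replicate block, the members called were 0 in liver at 4 h, 12 between spleen times, 11 between marrow and spleen at 7 d and 7 between spleen and liver at 7 d; with the 2 groups alone it was 0 in liver at 4 h. The cause was not tested. The blocked samples share only a number in the labels, and the block left 20 falls and 2 rises in the 7 d spleen. Leaving out 1 array gave 23 to 28 members called in the 7 d spleen, 1 to 5 in marrow, 0 to 1 in liver at 4 h, 12 to 24 between spleen times, 14 to 25 between marrow and spleen, 10 to 25 between spleen and liver at 7 d and 0 to 1 between them at 4 h. The spleen median then ran from −0.18 to −0.14. With the 2 spleen arrays left out together, chosen after seeing the data, 26 were called. A further quantile normalisation gave 25 falls and 4 rises there, and median centring 22 and 1. Signal over background limits the dim members, of which 3 (2 in marrow) lay under the lower quartile of all genes.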
